A study of Mus musculus with 2 samples.

Results

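The classical cadherins, protocadherins and their relatives were read here as 1 family of adhesion genes across neurons of the mouse hypothalamus. The nuclei carried a hashtag named ARC, for the arcuate nucleus, or PVH, the usual abbreviation of the paraventricular nucleus of the hypothalamus. A gene entered when its symbol was Cdh followed by digits, or Pcdh followed by digits or lower-case letters, and when it had a molecule counted by unique molecular identifier (UMI) in at least 20 columns of the deposited matrix. Of 32285 genes, 92 had such a symbol and 50 met the minimum. The mice were male C57BL/6J of wild type, 10 to 12 weeks old. Their nuclei were sorted for NeuN, a nuclear antigen of neurons, and were sequenced as 1 gene expression library with a matching hashtag library. The labels name the tissue as hypothalamic ARC throughout, and only the names of the 2 hashtags separate an ARC side from a PVH side. Mice were pooled, and no hashtag, barcode or label traced a nucleus to a mouse. The data are therefore 1 sample per side, without replicates and without a test between groups, and all intervals below are 95% exact intervals that cover counting error only. Levels are CPM, the summed UMIs of a gene per 1000000 UMIs of the same group, and a group was compared only for genes with at least 50 UMIs over both groups.

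Cadherins are calcium-dependent adhesion proteins whose extracellular repeats bind cadherins on the facing cell. Classical type I and type II cadherins bind beta-catenin and p120-catenin through their cytoplasmic tail, and combinations of type II members mark nuclei and circuits of the developing brain. Protocadherins lack the catenin-binding tail. The delta-1 and delta-2 protocadherins are single genes that take part in axon and synapse development, and several bind the WAVE actin regulators, whereas the clustered alpha, beta and gamma protocadherins lie in tandem arrays from which single neurons choose a few members.

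After filtering, 3767 nuclei carried the ARC hashtag alone and 3074 the PVH hashtag alone, with 19492658 and 16732895 UMIs and medians of 4827 and 5039 UMIs per nucleus. Of these 6841 nuclei, 6777 fell into 19 neuronal clusters and 64 into 2 non-neuronal clusters, an astrocyte and tanycyte one of 36 nuclei and an oligodendrocyte lineage one of 28. Sim1, a transcription factor of paraventricular neurons, measured 109 CPM on the PVH side and 10.6 CPM on the ARC side. The call of a hashtag was sensitive to its threshold, since a positive quantile of 0.99 in place of 0.8 left 1229 ARC and 407 PVH nuclei. Transcripts of abundant peptides were found in every cluster, for example Agrp at 107 CPM or more in all 19 and Oxt at 464 CPM or more, and the source of these transcripts was not tested.

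The 50 genes comprised 3 type I cadherins, 12 type II cadherins, 3 other cadherins, 4 delta-1 and 5 delta-2 protocadherins, 2 other single protocadherins (Pcdh15 and Pcdh20) and 21 clustered protocadherins. Of the symbols below the minimum, 5 were cadherins (Cdh1, Cdh3, Cdh5, Cdh17 and Cdh26). Cdh1 and Cdh3 are the epithelial and placental cadherins and Cdh5 is the endothelial one. By the mm10 annotation, 23 of the 50 lay on chromosome 18, which holds the protocadherin arrays, and 5 type II genes (Cdh6, Cdh9, Cdh10, Cdh12 and Cdh18) lay on chromosome 15. In the 50 genes together, 0.738% of all neuronal UMIs were counted, and 67.2% of these belonged to 4 genes.

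Those 4 were Pcdh9 at 2386 CPM in neurons, Pcdh7 at 1187, Pcdh15 at 781 and Cdh18 at 607. The next 6 by level were Cdh13 at 350 CPM, Cdh4 at 288, Pcdh11x at 264, Pcdh17 at 231, Cdh12 at 222 and Cdh2 (N-cadherin) at 176. Pcdh9, Pcdh15, Cdh18 and Cdh13 all span 877 kb or more, and the sources used here do not say whether intronic reads were counted. Per 100 kb of gene span, Pcdh7 came first with 286 CPM, Pcdh9 next with 272 and then Pcdh17 with 242, whereas Pcdh15 moved to place 20 with 50.4 and Cdh18 to place 15 with 65.6. At the other end of the CPM order stood Cdh19 at 0.361 CPM in neurons and 119 CPM in the non-neuronal clusters. A total of 14 members had between 16 and 43 UMIs over both sides, which was too few for any comparison: Cdh15, Cdh16, Cdh19, Pcdhga1 and 10 beta genes.

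The comparison of sides asked which members differed between PVH-hashtag and ARC-hashtag nuclei. Of 36 members compared, 3 were at least 2-fold higher on the PVH side, where 2.27% of the 15846 genes compared were, and 0 were at least 2-fold higher on the ARC side, where 1.8% of the genes were. The median log2 ratio of PVH over ARC was 0.04 for the members and -0.05 for all genes. A ratio above 0 was found in 18 of the 36 members and in 40.6% of all genes. By group it was found in 8 of 11 type II cadherins, in both type I cadherins and in 0 of 4 delta-1 protocadherins (log2 ratios from -0.68 to -0.10), and whether the groups differ was not tested.

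Cdh20, a type II cadherin, had the highest ratio of the family. It measured 11.7 CPM (229 UMIs) in ARC-hashtag nuclei and 37.9 CPM (634 UMIs) in PVH-hashtag nuclei, a log2 ratio of 1.69 (interval 1.47 to 1.91). At least 1 Cdh20 UMI was found in 3.56% of ARC and 11.4% of PVH nuclei, and after thinning each nucleus to 1000 UMIs in 0.929% and 3.29%. In SIM1-like cluster 17, described below, 0 of 121 nuclei had a Cdh20 UMI, which allows a share of nuclei with a UMI of up to 3.0% and sets no limit on the share that expresses the gene. Cdh20 was also measured at 482 CPM in the non-neuronal clusters, 298 CPM in the astrocyte and tanycyte one and 605 CPM in the oligodendrocyte lineage one. The summed levels of 5 oligodendrocyte markers were close on both sides (99.5 CPM in ARC, 101 CPM in PVH nuclei). So were those of 4 precursor markers (12.6 and 12.7 CPM). Other glial lists differed more, in opposite directions. Astrocyte markers summed to 34.01 CPM in ARC and 41.95 CPM in PVH nuclei, and tanycyte markers to 112.76 and 80.56 CPM. In neurons alone the log2 ratio of Cdh20 was 2.10. Without HTODemux, the hashtag caller used, and with a side called where its hashtag count was at least 3 times the other, the ratio was 0.87.

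Cdh7, a type II cadherin on the same chromosome as Cdh20, measured 28.0 CPM (546 UMIs) in ARC and 57.4 CPM (960 UMIs) in PVH nuclei. Its log2 ratio was 1.03, with an interval that reached below 2-fold (0.88 to 1.19). Over 9 alternatives the ratio of Cdh7 ran from 0.96 to 1.48. Cdh23, a large cadherin that forms the tip link of hair cells with Pcdh15, was rare, at 3.64 CPM (71 UMIs) and 7.83 CPM (131 UMIs), a log2 ratio of 1.10 (0.68 to 1.54). Its ratio ran from 0.39 to 2.00 under the other hashtag calls. Pcdh15 measured 638 CPM on the ARC side and 938 CPM on the PVH side, a log2 ratio of 0.56 (0.52 to 0.59). Pcdh7 had the lowest ratio of the abundant members, with 1437 CPM on the ARC side and 895 CPM on the PVH side (-0.68, -0.71 to -0.65). Cdh24 had a lower ratio of -0.75, on 153 and 78 UMIs, and its interval was wide (-1.16 to -0.35).

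**Figure D1:**
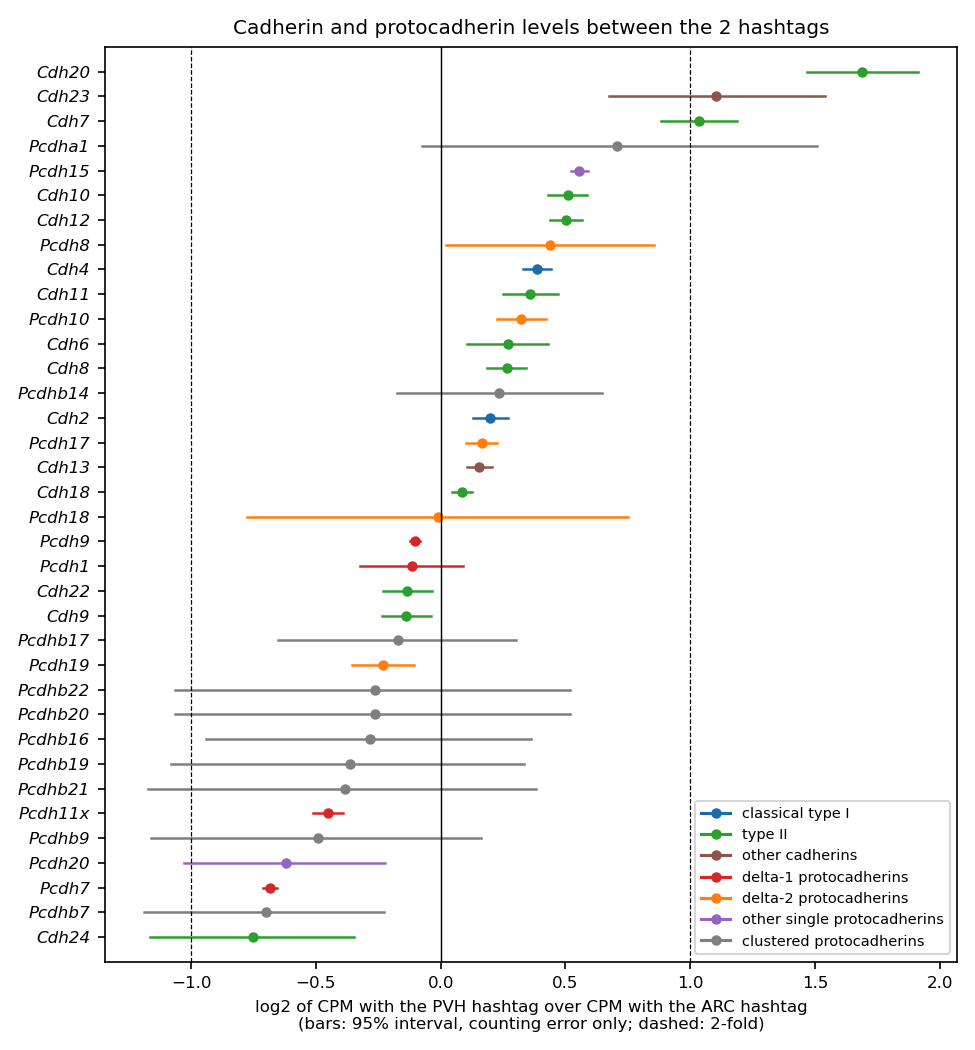
Log2 ratio of CPM in PVH-hashtag over ARC-hashtag nuclei (x axis) for the 36 members compared (y axis), coloured by group, with bars for the 95% interval of counting error and dashed lines at 2-fold. Cdh20, Cdh23 and Cdh7 lie above 2-fold, and the 4 delta-1 protocadherins lie below 0.

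Cdh20 and Cdh7 lie on the plus strand of chromosome 1, at 104768529 to 104995481 and 109982431 to 110140157 of mm10, and both were past 2-fold on the PVH side, so the 250 bases before their start sites in RefSeq (GRCm38.p6) are shown, where promoters of 21 of the 50 members were listed. The RefSeq starts of Cdh7 lie downstream of the annotated start given above, and its windows therefore fall inside that span. Capitals mark matches to ACGTG, a core of sites for bHLH-PAS factors such as SIM1, or to TAATTA, a homeodomain core, searched on both strands, and the motifs do not overlap. Cdh7 has 3 starts, of which the first (chr1:109982650-109982899) held neither motif and is not printed.
Cdh20 (chr1:104768270-104768519, plus strand): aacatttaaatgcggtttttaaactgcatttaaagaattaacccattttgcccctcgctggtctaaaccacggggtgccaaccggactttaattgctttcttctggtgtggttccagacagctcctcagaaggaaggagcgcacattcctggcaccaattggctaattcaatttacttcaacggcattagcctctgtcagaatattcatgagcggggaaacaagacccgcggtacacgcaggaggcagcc
Cdh7 start 2 (chr1:109983052-109983301, plus strand): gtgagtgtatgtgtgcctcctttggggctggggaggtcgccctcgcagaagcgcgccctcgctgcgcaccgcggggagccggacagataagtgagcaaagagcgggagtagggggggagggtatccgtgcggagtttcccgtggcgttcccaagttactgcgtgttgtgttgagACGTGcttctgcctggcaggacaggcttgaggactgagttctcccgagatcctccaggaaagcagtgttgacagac
Cdh7 start 3 (chr1:109983473-109983722, plus strand): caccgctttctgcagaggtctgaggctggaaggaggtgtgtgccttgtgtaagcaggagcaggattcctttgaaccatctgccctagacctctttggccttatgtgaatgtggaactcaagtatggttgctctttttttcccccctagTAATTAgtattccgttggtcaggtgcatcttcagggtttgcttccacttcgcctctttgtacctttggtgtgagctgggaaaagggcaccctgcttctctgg
Cdh20 held 0 matches, start 2 of Cdh7 held 1 ACGTG and start 3 held 1 TAATTA. Of 32851 promoters of the same length, 16.6% held ACGTG and 4.84% held TAATTA. These shares are per single window, whereas Cdh7 was searched in 3 windows, so they are not the shares for a gene with 3 starts. A match is a description of letters and not a bound site.

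The comparison of sides was repeated within each transmitter class, since the PVH side held 1554 glutamatergic and 1502 GABAergic neurons and the ARC side 1310 and 2411. Clusters were called glutamatergic where Slc17a6, the vesicular glutamate transporter, exceeded Slc32a1, the vesicular GABA transporter. Cluster 6 lay close to this limit, with 43.3 and 36.9 CPM of them, and so did the GABAergic cluster 1, with 40.3 and 50.9 CPM. Among GABAergic neurons 4 of 30 members compared were at least 2-fold higher on the PVH side (2.05% of all genes), and 0 were on the ARC side (2.49%). Among glutamatergic neurons 1 of 27 was higher on the PVH side (2.67% of all genes) and 2 were higher on the ARC side (2.04%).

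Cdh20 was higher on the PVH side within both classes, with 8.87 and 44.9 CPM on the ARC and PVH sides in GABAergic neurons (log2 ratio 2.34, 2.03 to 2.66) and 6.91 and 26.9 CPM in glutamatergic neurons (1.96, 1.51 to 2.44). Cdh7 had a log2 ratio of 1.29 in GABAergic and 0.62 in glutamatergic neurons. Cdh23 could be compared in GABAergic neurons only, where it measured 3.87 CPM on the ARC side and 13.1 CPM on the PVH side. Cdh8, a type II cadherin, measured 76.3 CPM on the ARC side and 165 CPM on the PVH side in GABAergic neurons (log2 ratio 1.11, 0.99 to 1.24), and 239 CPM and 159 CPM in glutamatergic neurons (-0.59, -0.69 to -0.49). Pcdh11x, an X-linked delta-1 protocadherin, also lay on opposite sides of 0. It measured 152 CPM on the ARC side and 219 CPM on the PVH side in GABAergic neurons (0.53, 0.43 to 0.62), and 569 CPM and 223 CPM in glutamatergic neurons (-1.35, -1.43 to -1.28). The remaining member past 2-fold was Pcdhb7 in glutamatergic neurons, on 44 ARC and 23 PVH UMIs. With cluster 6 counted as GABAergic, the GABAergic ratio of Cdh8 was 0.58 and that of Pcdh11x 0.05, and the glutamatergic ratios were -0.37 and -1.34. These differences between transmitter classes were not tested.

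**Figure D2:**
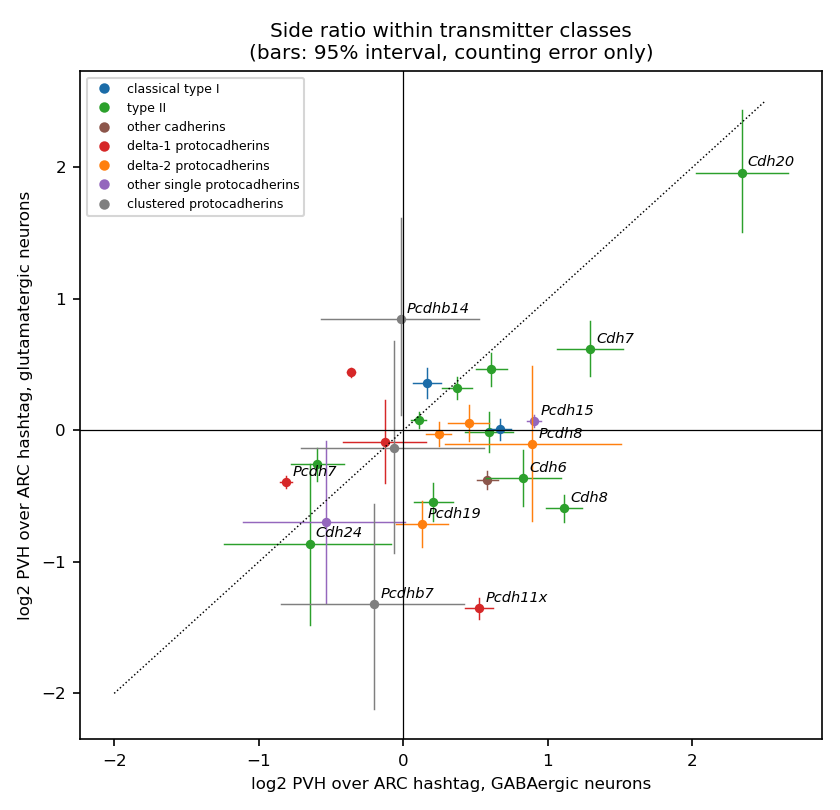
Log2 ratio of PVH over ARC hashtag in GABAergic neurons (x axis) and glutamatergic neurons (y axis) for the 27 members compared in both, with bars for the 95% interval of counting error and a dotted line of equal ratios. Cdh20 lies high on both axes, and Cdh8 and Pcdh11x lie right of 0 and below 0.

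Between all glutamatergic and all GABAergic neurons, 2 of 36 members were at least 2-fold higher in glutamatergic neurons (1.79% of all genes) and 1 in GABAergic neurons (1.33%). Cdh9 measured 134 CPM in glutamatergic and 60.7 CPM in GABAergic neurons, a log2 ratio of 1.15 (1.04 to 1.25). Pcdh11x measured 373 CPM and 177 CPM, a log2 ratio of 1.07 (1.01 to 1.13). Cdh23 measured 3.0 CPM and 7.36 CPM (-1.30, -1.80 to -0.82). These calls rested on the assignment of clusters 1 and 6. With cluster 6 counted as GABAergic, Cdh9 measured 119 and 77.6 CPM (log2 ratio 0.61) and Pcdh11x 341 and 215 CPM (0.67), and 0 members were 2-fold higher in glutamatergic neurons. With cluster 1 counted as glutamatergic, Cdh9 was at 0.93, Pcdh11x at 1.27 and Cdh23 at -0.97, and Cdh23 was above 0 in 3 other alternatives.

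In 5 clusters both hashtags were found in at least 30 nuclei, which allowed a comparison of sides within a cluster. In cluster 1, an unnamed GABAergic cluster of 382 ARC and 599 PVH nuclei led by Lef1 and Lhx8, Cdh20 measured 24.4 CPM (44 UMIs) in ARC nuclei and 75.2 CPM (221 UMIs) in PVH nuclei (log2 ratio 1.62, 1.15 to 2.12), and Pcdh7 measured 1008 and 502 CPM (-1.0, -1.10 to -0.90). These were 2 of 21 members compared there, 1 in each direction, where 0.858% of all genes were at least 2-fold higher on the PVH side and 0.505% on the ARC side. Cdh7 measured 39.4 and 47.7 CPM within that cluster, and its interval included 0 (-0.15 to 0.71). In the dopaminergic-like cluster 4, with 319 ARC and 186 PVH nuclei, Cdh12 measured 250 CPM in ARC nuclei and 71.1 CPM in PVH nuclei (-1.81, -2.22 to -1.42), and Cdh9 measured 150 and 58.3 CPM (-1.37, -1.84 to -0.92), 2 of 19 members where 1.66% of all genes were that much higher on the ARC side and 0 members were on the PVH side (1.48%). With clusters split further, at a resolution of 1.0, the class of this name held 3.16% PVH nuclei, so a difference between sides of cluster 4 cannot be told apart from one between groups of cells. In cluster 3 the count was 1 of 22 in each direction (6.68% higher on the PVH side, 1.78% on the ARC side), with 37 ARC nuclei only, and in the VMH-like cluster 11 it was 0 of 19 (0.415% and 1.11%). Members named within transmitter classes and shared clusters were chosen after their values were seen.

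In SIM1-like cluster 17, Cdh9 measured 610 CPM in 34 ARC nuclei and 562 CPM in 87 PVH nuclei, and Pcdh9 measured 287 and 266 CPM. Both intervals of the log2 ratio included 0 (-0.43 to 0.20 for Cdh9, -0.56 to 0.35 for Pcdh9). Of 12 members compared there, 2 were at least 2-fold higher on the PVH side (1.95% of all genes), Cdh8 and, on 7 ARC UMIs, Pcdh15, and 0 on the ARC side (0.946%).

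Across the 19 neuronal clusters the members were compared by the ratio of the highest cluster to the median cluster. The genes of the family were kept out of the variable genes used for clustering, where 22 of them would have entered. The median ratio was 2.49 for the 36 members and 1.60 for all 15794 genes compared, and 5 members reached 4-fold (9.45% of all genes). These 5 were Cdh9, Cdh8, Cdh23, Cdh20 and Pcdh11x. Of the type II cadherins 3 of 11 were past 4-fold, with ratios from 2.10 to 6.36, whereas the 4 delta-1 protocadherins ranged from 1.48 to 5.20 and the 10 beta and alpha genes compared from 1.81 to 3.09.

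Cdh9 had the widest spread. Its highest level was 575 CPM (521 to 632) in SIM1-like cluster 17, a cluster with high Avp, the gene of vasopressin, and Ebf3. The second highest was 243 CPM (222 to 265) in cluster 6, an unnamed glutamatergic cluster, the median was 90.3 CPM and the lowest 16.6 CPM in AGRP-like neurons. At 1000 UMIs per nucleus, Cdh9 was detected in 41.3% of nuclei of cluster 17 (32.4 to 50.6) and in 1.82% of AGRP-like nuclei (1.0 to 3.04). Without thinning the shares were 91.7% and 6.77%.

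Cdh8 was highest in KNDy-like neurons at 576 CPM (531 to 623), 1.77-fold above cluster 6 at 325 CPM, with a median of 92.3 CPM. Its lowest level was again in AGRP-like neurons, at 19.9 CPM. Pcdh11x was also highest in KNDy-like neurons, at 1234 CPM (1169 to 1303) against 592 CPM in POMC-like neurons, 587 CPM in cluster 6 and 39.4 CPM in cluster 17, its lowest. The POMC-like and cluster 6 levels were within each other's counting error. Among neurons Cdh23 was concentrated in cluster 3, which held 40.0% of its neuronal UMIs at 20.3 CPM (16.0 to 25.3). That cluster was an unnamed GABAergic one of mostly PVH-hashtag nuclei, led by Sp8, Meis2 and Pax6. The second highest neuronal level of Cdh23 was 6.75 CPM in cluster 1. In the non-neuronal astrocyte and tanycyte cluster Cdh23 was higher, at 69.4 CPM on 7 UMIs. Cdh20 peaked in clusters 1 (55.9 CPM) and 5 (53.9 CPM), a pair whose intervals overlapped, and its median was 9.60 CPM. In Cdh23 and Cdh20 the share of nuclei with a UMI was low even in the highest neuronal cluster, 5.39% in cluster 3 and 15.2% in cluster 1 before thinning.

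**Figure D3:**
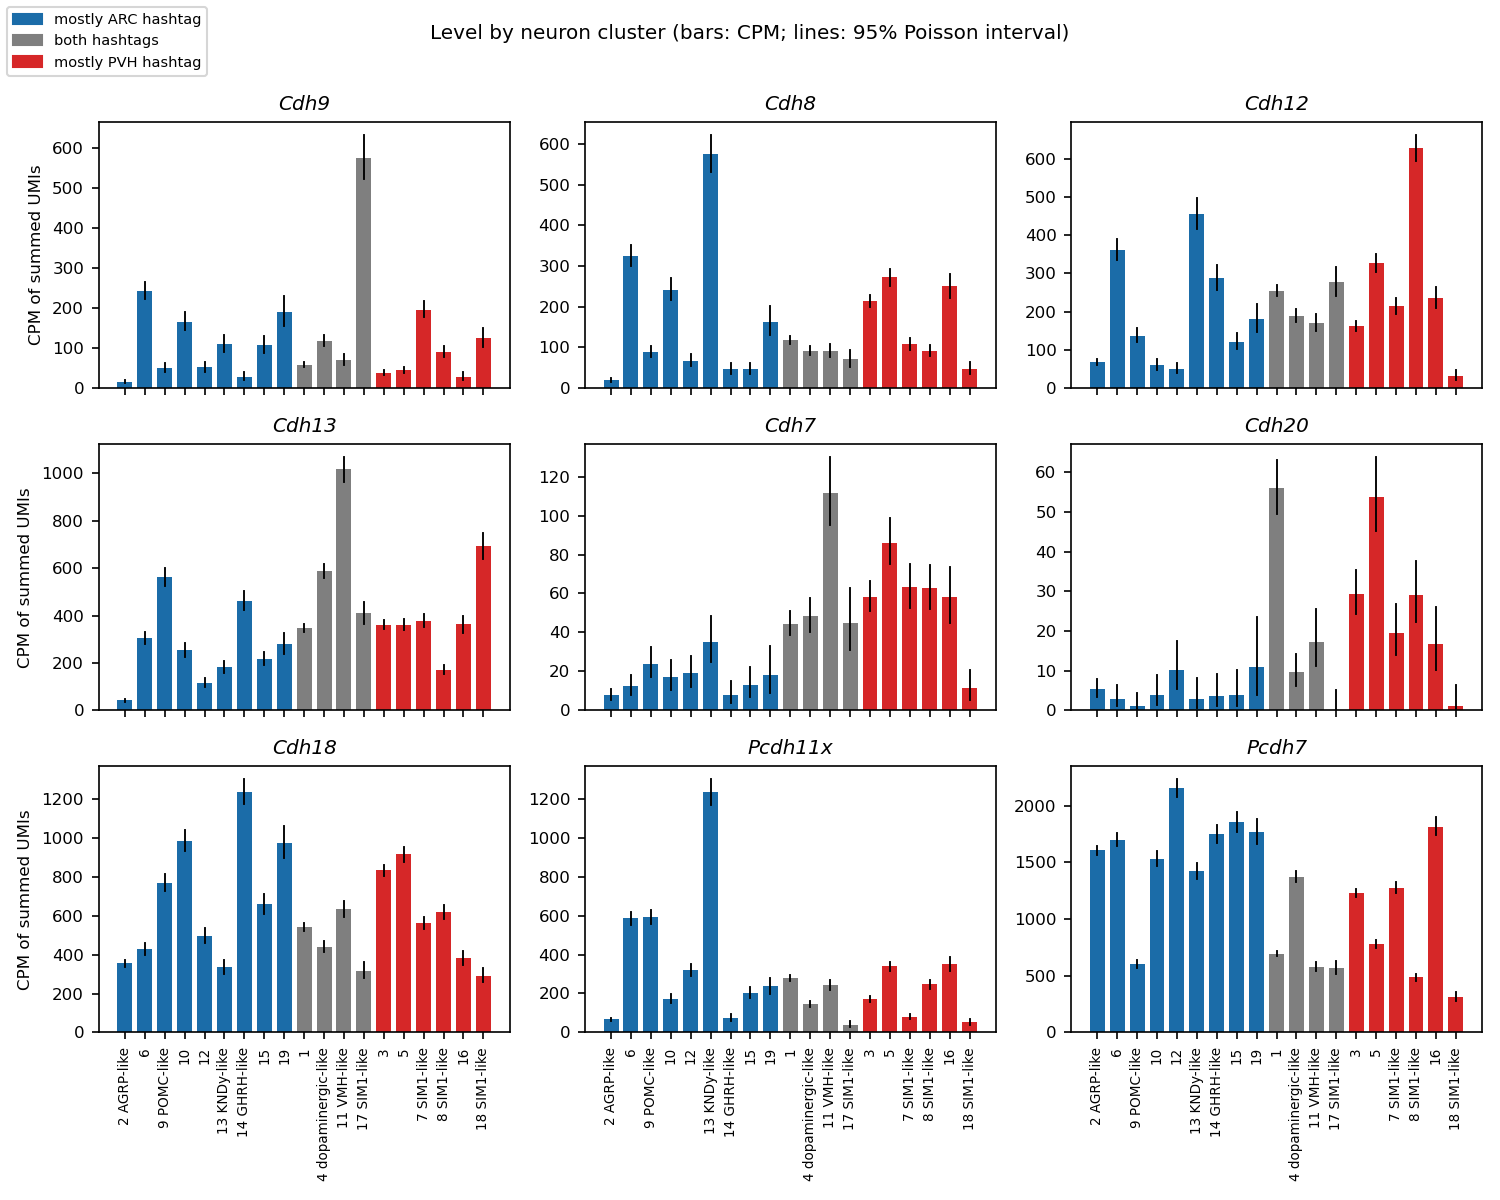
CPM of summed UMIs (y axis, linear from 0, own scale in each panel) in the 19 neuronal clusters (x axis) for 9 members, coloured by which hashtag the cluster held, with lines for the 95% Poisson interval. Cdh9 peaks in SIM1-like cluster 17, Cdh8 and Pcdh11x in KNDy-like neurons, Cdh13 in VMH-like neurons and Cdh18 in GHRH-like neurons.

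Below 4-fold, 7 further members had the next largest ratios. Cdh6 reached 106 CPM in cluster 19, an unnamed glutamatergic cluster led by Smoc2 and Ntng2. Cdh12 reached 627 CPM in SIM1-like cluster 8 (593 to 663) and Cdh24 19.7 CPM in cluster 12, an unnamed GABAergic cluster. Cdh7 reached 112 CPM in VMH-like neurons. The others were Pcdhb20, Pcdhb21 and Pcdha1, whose highest cluster held between 4 and 9 UMIs. Pcdh9 was at most 3690 CPM, in SIM1-like cluster 7, against a median of 2187 CPM, and it was the highest member in 16 of the 19 clusters, but measured 272 CPM in cluster 17. In that cluster Cdh9 and Pcdh7 led the family with levels that could not be separated (575 and 571 CPM). Pcdh7 led in clusters 6 and 12.

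**Figure D4:**
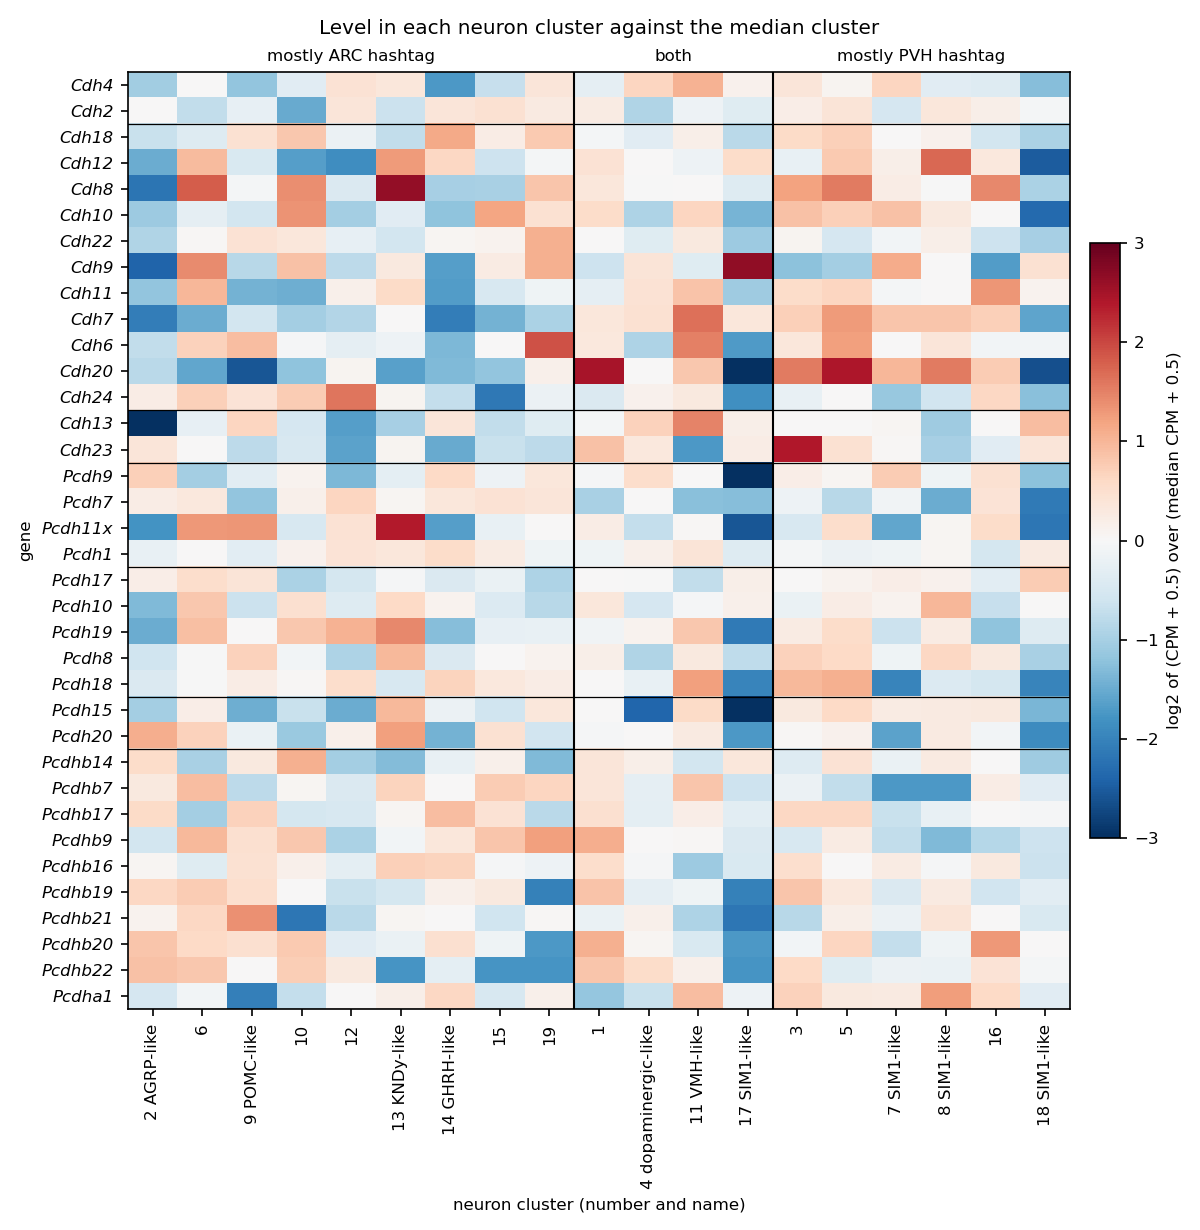
Level of the 36 members compared (rows, ordered by group) in each neuronal cluster (columns, ordered by hashtag), as the log2 of CPM plus 0.5 over the gene's median plus 0.5, with colours ending at 3 in both directions. AGRP-like and GHRH-like columns are low for many type II cadherins, and clusters 17 and 18 are at least 2-fold below other neurons for 18 members each.

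A total of 7 classes of neurons could be named from marker genes, and each was compared with all other neurons. AGRP-like neurons, the hunger-promoting cells that make agouti-related peptide and neuropeptide Y, had low levels of much of the family. Of 36 members 14 were at least 2-fold lower in these 768 nuclei (7.64% of all genes) and 1 was higher (2.83%). The median log2 ratio was -0.88 for the members and 0.03 for all genes. Of the 11 type II cadherins 8 were among the lower ones. Cdh13, a cadherin held in the membrane by a lipid anchor, measured 42.9 CPM (36.9 to 49.7) against 391 CPM in other neurons, a log2 ratio of -3.19 (-3.41 to -2.97). Cdh8 measured 19.9 and 164 CPM (-3.04), Cdh9 16.6 and 104 CPM (-2.65), Cdh7 7.92 and 46.3 CPM (-2.55), Cdh20 5.28 and 22.6 CPM (-2.10) and Pcdh11x 67.9 and 290 CPM (-2.09). Members named as lower in a class were picked after their values were seen. The 1 member above 2-fold was Pcdh20, at 12.5 and 5.56 CPM on 52 UMIs (log2 ratio 1.16, 0.69 to 1.62). Pcdh9 and Pcdh7 were at 3591 and 1606 CPM in these neurons and at 2228 and 1132 CPM in other neurons, whereas Pcdh15, the next protocadherin by level, was at 420 and 829 CPM (log2 ratio -0.98, -1.05 to -0.91).

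KNDy-like neurons, which make kisspeptin, neurokinin B and dynorphin and drive pulses of gonadotropin release, had the highest level of any cluster for 7 of 36 members and for 9.53% of all genes. Of those 7, Pcdhb16 had 4 and Pcdh8 11 UMIs in the class. In 218 nuclei 6 of 36 members were at least 2-fold higher (4.41% of all genes) and 4 lower (13.4%), and 5 of the 6 had at least 20 UMIs in the class. Pcdh11x measured 1234 CPM against 234 CPM in other neurons, a log2 ratio of 2.40 (2.31 to 2.48). Cdh8 measured 576 against 134 CPM (2.10, 1.98 to 2.22), Pcdh19 152 against 57.5 CPM (1.40, 1.16 to 1.63), Pcdh15 1660 against 754 CPM (1.14, 1.07 to 1.21) and Cdh12 455 against 215 CPM (1.08, 0.95 to 1.21). Pcdh20, at 13.9 CPM, rested on 15 UMIs. Pcdh11x and Pcdh19 both lie on the X chromosome. Of the lower members, Cdh20 was at 2.77 CPM on 3 UMIs and the other 3 were beta genes with 0 to 2 UMIs in the class.

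**Figure D5:**
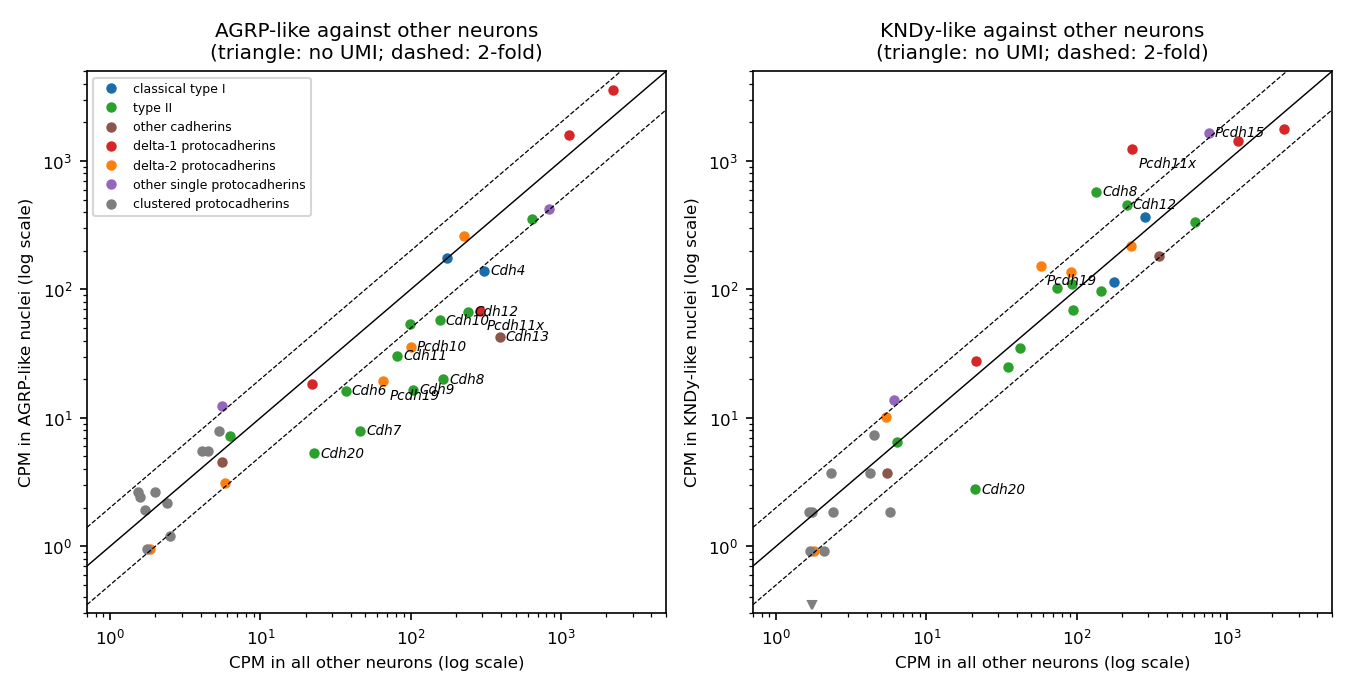
CPM of the 36 members in AGRP-like (left) and KNDy-like (right) nuclei (y axis) against all other neurons (x axis), both on log scales, with a solid line of equal level and dashed lines at 2-fold. Cdh13, Cdh8 and Cdh9 lie farthest below the line in AGRP-like nuclei, and Pcdh11x and Cdh8 farthest above it in KNDy-like nuclei.

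VMH-like neurons carry Nr5a1 and Fezf1, transcription factors of the ventromedial hypothalamus, the region beside the ARC. In these 259 nuclei, 25.9% with the PVH hashtag, 6 of 36 members were at least 2-fold higher (2.99% of all genes) and 5 lower (10.2%). Cdh13 was highest here of all clusters, at 1017 CPM against 322 CPM in other neurons (log2 ratio 1.66, 1.58 to 1.74). Cdh7 measured 112 against 38.9 CPM (1.52, 1.28 to 1.76), Cdh6 79.9 against 32.6 CPM (1.29, 1.01 to 1.57) and Cdh4 (R-cadherin) 599 against 275 CPM (1.12, 1.02 to 1.22). The other 2, Pcdh18 and Pcdha1, had 6 and 5 UMIs. Pcdh7 was lower, at 579 against 1213 CPM, and the other lower members had 1 UMI each in the class. With sides called by a 3-fold hashtag ratio, 2 members were higher.

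POMC-like neurons, which make the precursor of alpha-MSH and reduce feeding, had 2 of 36 members at least 2-fold higher (2.95% of all genes) and 7 lower (9.01%) in 288 nuclei. Pcdh11x measured 592 against 248 CPM (log2 ratio 1.25, 1.16 to 1.35). The other, Pcdhb21, had 9 UMIs. Cdh20 was nearly unmeasured, with 2 UMIs or 1.2 CPM (0.145 to 4.32) against 21.6 CPM. Cdh11 measured 25.7 against 77.4 CPM, Pcdh15 308 against 804 CPM and Pcdh7 600 against 1216 CPM. Over 13 alternatives the log2 ratio ran from -2.15 to -0.30 for Cdh11, from -1.47 to -0.49 for Pcdh15 and from -1.32 to 0.81 for Pcdh7, and each highest value was that of sides called by a 3-fold hashtag ratio.

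GHRH-like neurons, which make growth hormone-releasing hormone, had 1 of 36 members at least 2-fold higher (3.43% of all genes) and 12 lower (12.8%) in 211 nuclei. The higher one was Cdh18, a type II cadherin, at 1236 against 587 CPM (log2 ratio 1.08, 1.0 to 1.15). Of the lower ones 7 were type II, among them Cdh7 at 8.00 against 43.0 CPM and Cdh9 at 28.5 against 95.6 CPM. Cdh4, the type I member among them, measured 87.1 against 295 CPM (-1.76, -2.06 to -1.47).

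Dopaminergic-like neurons had 0 of 36 members at least 2-fold higher (1.89% of all genes) and 6 lower (7.86%) in 505 nuclei of both hashtags. Pcdh15 had the lowest ratio, at 163 against 827 CPM (log2 ratio -2.35, -2.49 to -2.20), and it was low in the ARC nuclei (174 CPM) and in the PVH nuclei (142 CPM) of the cluster. Cdh10 measured 64.0 against 150 CPM and Cdh6 14.4 against 36.0 CPM. Counts in both directions differed where the class was narrower. At a Leiden resolution of 1.0 the class was 95 nuclei, 3.16% with the PVH hashtag, and 5 members were at least 2-fold higher than in other neurons: Cdh9 (2.51-fold), Cdh24 (2.45-fold), Cdh13 (2.45-fold), Pcdh18 (2.24-fold) and Cdh12 (2.15-fold). No interval is given for these folds. Cdh24 and Pcdh18 were thinly counted, with 17 and 3 UMIs in the 505 nuclei of the class as reported. Pcdh8 and Pcdha1 had 6 and 2 there. The filter without upper limits on genes and counts also gave a narrow class, of 96 nuclei, and 5 higher members at the resolution reported. In both of these Cdh10 (0.608-fold and 0.603-fold), Pcdh8 and Pcdha1 were no longer 2-fold lower, whereas Cdh2 and Pcdh11x were (0.345-fold and 0.259-fold at the resolution of 1.0).

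SIM1-like neurons, named for a transcription factor of paraventricular neurons, formed 4 clusters, 7, 8, 17 and 18. Over all 957 nuclei 1 of 36 members was at least 2-fold higher (2.25% of all genes) and 8 lower (5.68%). Of the lower ones Pcdh11x had 29 UMIs or more in each of the 4 clusters. The other lower ones, Pcdh18, Pcdh20, Cdh24 and 4 beta genes, had at most 14 in any of them and lay near the floor. The higher one was Cdh9, at 196 against 74.4 CPM (log2 ratio 1.40, 1.30 to 1.5). It measured 196 CPM in cluster 7, 90.3 CPM in cluster 8, 575 CPM in cluster 17 and 125 CPM in cluster 18. Without clusters 1, 4, 11 and 17, those with a PVH share between 10% and 90%, the ratio was 0.93, and with ARC nuclei clustered alone it was 0.11. Sim1 was also measured at 111 CPM in cluster 5 and 200 CPM in cluster 16, which did not meet the rule for the name and stood among the other neurons, with Cdh9 at 44.5 and 28.1 CPM. With these clusters counted in, Cdh9 measured 135 against 79.1 CPM (log2 ratio 0.77, 0.67 to 0.88), and 0 members were 2-fold higher and 2 lower.

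Cluster 8, led by Nkx2-2 and Hs3st3b1, had 3 of 36 members at least 2-fold higher (2.49% of all genes), of which Cdh12 measured 627 against 198 CPM in other neurons (log2 ratio 1.67, 1.58 to 1.75) and Pcdh10 180 against 87.1 CPM (1.04, 0.88 to 1.2). Its levels of Pcdh7 (487 CPM) and Cdh13 (171 CPM) were among the 5 lower members (7.91%). The other lower ones had 1 to 3 UMIs, and Pcdha1, the other higher member, had 9. In cluster 7 the 1 higher member (2.73%) was Cdh9, and of the 9 lower members (9.78%) Pcdh11x measured 79.9 against 275 CPM. The other lower members of cluster 7 had 0 to 5 UMIs there.

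Cluster 17, with Avp at 1794 CPM, and cluster 18, with Oxt, the gene of oxytocin, at 2017 CPM, had the lowest summed level of the family, 3651 and 3873 CPM, where the median cluster had 7539 CPM and the other 17 ranged upward from 5735 CPM. Their median UMI counts were 5687 and 7133.5 per nucleus, and the part of depth in the summed levels was not tested. In each of them 18 of 36 members were at least 2-fold lower than in other neurons. The share of all genes was 18% for cluster 17 and 16.3% for cluster 18. Of the lower members of cluster 17, 6 had 0 UMIs there, Cdh24 and Pcdh20 had 1 each and Pcdh8 had 2. Of those of cluster 18, Pcdh18 had 0, and Cdh20, Pcdh20, Pcdhb9 and Pcdhb16 had 1 each. Cdh24, Pcdh8 and Pcdhb14 had 2 each in cluster 18. In cluster 17 Pcdh15 measured 73.4 against 796 CPM (log2 ratio -3.44, -3.85 to -3.06), Pcdh9 272 against 2430 CPM (-3.16, -3.37 to -2.96) and Pcdh11x 39.4 against 269 CPM (-2.77, -3.35 to -2.25). In cluster 18 Cdh12 measured 33.0 against 227 CPM (-2.78, -3.36 to -2.26), Cdh10 23.9 against 147 CPM (-2.62) and Pcdh7 313 against 1209 CPM (-1.95). The 1 higher member was Cdh9 in cluster 17 (4.62% of all genes) and Cdh13 in cluster 18 (5.19%), the latter at 693 against 342 CPM (1.02, 0.90 to 1.14). Cdh12 thus differed widely between clusters 8 and 18, at 627 and 33.0 CPM, and at 1000 UMIs per nucleus it was detected in 42% and 3.39% of their nuclei.

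Of the unnamed clusters, cluster 1 had 3 of 36 members at least 2-fold higher than other neurons (1.17% of all genes), Cdh20 and 2 beta genes, and 1 lower (2.77%). Cluster 3 had 2 higher (1.77%), Cdh23 and Pcdh18, and 2 lower (4.61%). Cluster 5, a glutamatergic one of mostly PVH-hashtag nuclei led by Lhx9, had 4 higher (2.48%), Cdh20, Pcdh18, Cdh7 and Cdh6, and 2 lower (5.07%). Cluster 6 had 4 higher (2.41%), Cdh9, Pcdh11x, Cdh8 and Pcdhb7, and 5 lower (8.29%). Cluster 19 had 4 higher (4.58%), Cdh6, Pcdhb9, Cdh22 and Cdh9, and 7 lower (13.6%). Pcdhb9 rested on 3 UMIs there, and its interval included 0 (-1.09 to 2.82). The lower members had 0 or 1 UMI there, except Cdh7 with 10. Cluster 10 had 2 higher (3.32%), Cdh10 and Pcdhb14, and 10 lower (9.82%), cluster 15 had 0 higher (2.79%) and 6 lower (10.4%), and cluster 16 had 2 higher (4.24%), Cdh11 and Pcdhb20, and 6 lower (9.35%). Several of the higher members rested on few UMIs. Pcdhb20 had 14 in cluster 1 and 4 in cluster 16, and Pcdh18 had 13 in cluster 3 and 9 in cluster 5. Pcdhb7 had 18 in cluster 6 and Pcdhb14 had 15 in cluster 10. Cdh22 reached 212 CPM in cluster 19 and Cdh10 reached 312 CPM in cluster 10, followed by 278 CPM in cluster 15, a pair whose intervals overlapped. Cdh11, known from bone and mesenchyme, reached 172 CPM in cluster 16, a mostly PVH-hashtag cluster led by Sim2. In cluster 12 as many as 15 members were at least 2-fold lower (8.75% of all genes), among them Cdh12, Cdh13 and Pcdh9. Others of them were thinly counted there: Cdh23, Pcdhb9, Pcdhb19, Pcdhb20 and Pcdhb21 had 1 UMI each, and Pcdhb14 and Pcdh8 had 3. In that cluster 1 was higher (2.83%), Cdh24, and Pcdh7 was at its highest (2152 CPM). Some lower members of other unnamed clusters also had few UMIs, such as Pcdhb21 with 0 in cluster 10, Pcdhb22 with 0 in cluster 15 and Pcdhb9 with 1 in cluster 16. Members named for the unnamed clusters were chosen after their values were seen.

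The clustered protocadherins were thinly counted. Over all barcodes the alpha array had 110 UMIs on 14 rows, the beta array 1824 UMIs on 22 rows and the gamma array 101 UMIs on 21 rows, of which 11 had none. The alpha genes all end within 4 bases of each other and the gamma genes within 3 bases, because their variable exons splice to shared constant exons. In a library that reads the 3' end, the variable exon of such a molecule cannot be told apart, so the alpha and gamma values are uncertain. Beta genes are single exons with 3' ends of their own, and 19 of 22 were members. Each of the 22 overlaps at least 3 other annotated genes on the same strand, so their reads may be shared or lost. The effect of this overlap on the beta counts was not tested. They were led by Pcdhb14 at 5.62 CPM in neurons, Pcdhb7 at 4.59 and Pcdhb17 at 4.23. Of 10 clustered genes compared between sides, 2 were above 0, against 40.6% of all genes, 8 were below 0, and 0 passed 2-fold in either direction. The interval of 1 excluded 0, that of Pcdhb7 (-1.19 to -0.23), which was at 5.54 CPM on the ARC side and 3.41 CPM on the PVH side.

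Genes around the cadherins were followed as fixed lists. The 9 catenins and catenin relatives, which link cadherins to actin, were all compared and 0 passed 2-fold between sides or were 2-fold higher in a named class, where 16.9% of all genes were higher in at least 1 of the 7. Their log2 side ratios ran from -0.49 for Ctnna2 (2150 CPM on the ARC side, 1531 on the PVH side) to 0.69 for Ctnnb1, beta-catenin (25.3 and 40.8 CPM). Ratios of the highest to the median cluster ran from 1.28 to 2.41. The 9 WAVE genes (1.13 to 1.65) also had 0 past 2-fold between sides and 0 that were 2-fold higher in a named class. Of 10 other genes of the cadherin superfamily that were compared, 4 were 2-fold higher in a named class. Fat1, a giant atypical cadherin, was 2.80-fold higher in SIM1-like neurons, with 91.9 CPM in cluster 7 and a median of 18.6 CPM. Fat3 was 2.85-fold higher in GHRH-like neurons, Fat4 2.05-fold in AGRP-like and 2.08-fold in KNDy-like neurons, and Clstn2, a calsyntenin, 2.08-fold in dopaminergic-like neurons. Of 5 regulators of the protocadherin arrays, among them Ctcf and Smchd1, Dnmt3b passed 2-fold, in KNDy-like neurons (2.02-fold), at a median of 1.2 CPM.

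Among 24 members with at least 200 UMIs, likeness was described by Spearman's rho over the 19 neuronal clusters, which come from 1 library and share its depth. The most alike pair was Cdh22 and Cdh18 (0.79), followed by Cdh8 and Pcdh15 (0.65) and by the X-linked Pcdh11x and Pcdh19 (0.65). Cdh20 and Cdh7 had a rho of 0.63. The least alike pair was Cdh13 and Pcdh20 (-0.59), with Cdh13 low and Pcdh20 high in AGRP-like and KNDy-like neurons.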

How the data were processed

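Nuclei were sorted for NeuN and captured with 10x Genomics Chromium v3 chemistry, which counts molecules by UMI near the 3' end. The deposited matrix holds whole-number UMI counts for each gene in each barcode, not normalized, and the counts of 2 hashtag antibodies. Cell Ranger is named as version 5.0 in the processing notes and methods and as 4.0.0 in the header of the matrix. The build is mm10. The sources used here do not say whether intronic reads or strand were used in counting, so overlapping and antisense genes may share reads. Coordinates come from an annotation of the same build (GENCODE M21), in which 32158 of 32285 IDs and all members were found.

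From 11409 barcodes, 10170 nuclei were kept with over 800 and under 5000 genes, at most 12000 UMIs and at most 1% mitochondrial UMIs. Hashtags were normalized by centred log ratio and called with HTODemux at a positive quantile of 0.8 in Seurat 5.3.0 (R 4.3.3), which marked 944 doublets and 2385 nuclei without a call. Both were left out, so doublets within 1 hashtag remain. Nuclei of both hashtags were clustered together on 1978 variable genes, 30 components, 20 neighbours and Leiden (leidenbase 0.1.32) at 0.55, with the family left out of the variable genes. A class was met where at least 3 of its markers, the first of its list among them, were 1.5-fold above the other neurons with 3 UMIs or more. It was dropped where another marker list had more genes among the cluster's leading genes. A cluster was named where 1 class was left. Transmitter classes were made from Slc17a6 and Slc32a1 per cluster. UMIs were summed per side, class or cluster (scipy 1.17.1, pandas 2.3.3), with exact Poisson intervals for CPM and exact binomial (Clopper-Pearson) intervals for ratios of CPM and shares. The fold and spread counts are descriptions, since each side is 1 pooled sample, and no p-value was computed. In counts simulated at the depth of the side comparison, 99% of 200 genes raised 2.5-fold passed 2-fold and 0.0768% of the unchanged genes did. At the depth of the AGRP-like comparison these shares were 97.5% and 1.25%. The raised genes were drawn from those with at least 2 times the minimum of 50 UMIs expected, and only counting error was simulated. Differences between mice, in composition and in hashtag calls were left out, so these shares are not error rates of the comparisons above.

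Named members were the 10 highest by level, those past 2-fold between sides, the 12 with the largest spread, and up to 5 per named class past 2-fold with at least 20 UMIs, and others were named after their values were seen. The members and all lists were chosen with earlier results of these data known. Alternatives were other filters, hashtag calls, scaling, UMI minimums, resolutions, clustering with the family kept or of ARC nuclei alone, and thinning to 1000 UMIs, which left out 1 nucleus. The result of 1 other gene list is not reported here.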

Additional observations from a re-analysis of the deposited data

Results flagged for a closer look

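In 6 of the 27 members and 4.12% of the 13553 genes compared in both transmitter classes, the PVH over ARC ratio lay above 0 in one class and below 0 in the other with both counting intervals clear of 0, and each side is 1 pooled sample, so the difference was not tested. On the log2 scale Cdh8 was at -0.59 in glutamatergic and 1.11 in GABAergic neurons. Pcdh11x was at -1.35 and 0.53. Cdh6 was at -0.36 and 0.83, Cdh13 at -0.38 and 0.58, and Cdh22 at -0.55 and 0.21. With cluster 6, which lay close to the limit between the classes, counted as GABAergic, the GABAergic value of Pcdh11x was 0.05. Pcdh9 had the reverse order, at 0.44 in glutamatergic and -0.36 in GABAergic neurons. In the glutamatergic class the ARC side held 212 of 218 KNDy-like, 283 of 288 POMC-like, 192 of 259 VMH-like and 410 of 420 cluster 6 nuclei. The PVH side held most nuclei of the SIM1-like clusters. In the GABAergic class the ARC side held 758 of 768 AGRP-like nuclei and the PVH side 687 of 724 nuclei of cluster 3. The composition of each class thus differs between sides, and its part in these ratios was not tested.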

How the results depend on the processing

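Counts of members under each alternative were within 1.5 times the reported count in 199 of 261 cases and beyond it in 62, and of 860 values of named members 729 stayed within their counting interval, 122 moved beyond it and 9 changed sign. The comparisons of neurons only, without the clusters of both hashtags and with clusters 1, 5, 6 and 16 moved to another class were added after seeing the data. No paired analysis was possible because each side is a single pooled sample without replicate numbers.

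Calling a side where its hashtag was 3 times the other left 1 member 2-fold higher on the PVH side, 2 with a 4-fold spread, 0 higher in AGRP-like, 1 higher and 3 lower in POMC-like, 2 higher and 0 lower in VMH-like and 4 lower in SIM1-like neurons, and 4 member and class pairs higher in place of 17. It turned Cdh6 in AGRP-like (0.38) and Pcdh7 in POMC-like neurons (0.81) to above 0 on the log2 scale, and left no KNDy-like, GHRH-like or dopaminergic-like class. A quantile of 0.99 gave 3 lower in VMH-like, 2 higher in GHRH-like and 5 lower in SIM1-like neurons, with no dopaminergic-like class. A minimum of 20 UMIs gave 1 member higher on the ARC side, 8 with a 4-fold spread, 2 higher in AGRP-like, 5 higher and 12 lower in POMC-like, 8 lower in VMH-like, 7 lower in KNDy-like, 1 higher in dopaminergic-like and 6 higher in GHRH-like neurons, 32 higher pairs in all. A minimum of 200 gave 1 higher in POMC-like, 1 lower in VMH-like, 2 lower in KNDy-like and 3 lower in SIM1-like neurons. Thinning gave 1 higher on the PVH side, 0 higher in AGRP-like, 1 higher in POMC-like, 1 lower in VMH-like and 0 lower in SIM1-like neurons, and 4 members apart between sides within transmitter classes in place of 7. With fewer UMIs, fewer members pass the minimum of UMIs.

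ARC nuclei clustered alone gave 1 higher in POMC-like, 3 lower in VMH-like, 1 lower in KNDy-like, 5 higher in dopaminergic-like and 4 higher and 2 lower in SIM1-like neurons, with Cdh20 at 0.47 in dopaminergic-like and Pcdhb9 at 1.27 in SIM1-like neurons, both below 0 otherwise. Without upper limits on genes and counts 2 were higher in AGRP-like and 5 in dopaminergic-like neurons, and at a resolution of 1.0 also 5 in the latter, with Pcdha1 at 0.24 and 0.21 there in place of -1.11. A mitochondrial limit of 5% gave 2 higher in GHRH-like and 4 lower in SIM1-like neurons. Members higher in glutamatergic neurons were 8 at a quantile of 0.99, 1 at the 3-fold ratio, 6 in ARC nuclei alone and 0 with cluster 6 moved, in place of 2. Members higher in GABAergic neurons, reported as 1, were 2 at the 3-fold ratio, at 20 UMIs and with cluster 6 moved, and 0 without upper limits, at the quantile of 0.99, the resolution of 0.3 and 200 UMIs, in ARC nuclei alone, after thinning and with cluster 1 moved. Cdh23 changed sign to 1.74 at the quantile, 0.57 at the resolution of 0.3 and 0.58 in ARC nuclei alone. With clusters 5 and 16 counted as SIM1-like, 0 members were higher and 2 lower there. Without the clusters of both hashtags 0 members were higher in SIM1-like neurons and 10 pairs were higher in all. A rule of 100 matrix columns would leave 33 of the 50 members. Apart from construction (fewer nuclei, genes or UMIs), the causes were not tested. Of the members, 14 had too few UMIs for any comparison.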
